A study of Saccharomyces cerevisiae with 12 samples.

Results

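The 18S rRNA gene lies inside the 35S gene, the single unit that RNA polymerase I (Pol I) transcribes from the ribosomal DNA of Saccharomyces cerevisiae. Its interior was taken here as the positions of 18S left after the outer 30 nucleotides at each end were set aside, which are positions 731 to 2470 counted from the 35S start, 1740 of the 6858 positions of the gene. On assembly R64-1-1 they occupy chrXII:465100-466839 on the minus strand, all within the exon of an rRNA gene, and the rule that sets them uses coordinates alone. Pol I occupancy was measured by native elongating transcript sequencing (NET-seq), in which the HA-tagged polymerase is pulled down and the 3′ end of the RNA it holds gives the last nucleotide added. Cultures of one wild-type strain, which carries HA-tagged RPA135 and has RPA190 on the plasmid pRS315-RPA190 in an rpa190Δ background, were grown at 30 °C and given 50 µM BMH-21, a small molecule that inhibits Pol I, or the vehicle phosphate buffer. They were harvested after 2 min or 16 min, with 3 libraries for each of BMH-21 at 2 min, vehicle at 2 min, BMH-21 at 16 min and vehicle at 16 min, 12 in all.

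The RNA copied from this region becomes the RNA of the small ribosomal subunit, which binds mRNA and decodes it. Small nucleolar ribonucleoproteins modify many of its nucleotides, those of the box C/D kind adding 2′-O-methyl groups and those of the box H/ACA kind converting uridine to pseudouridine. Mature rRNA is abundant in every yeast extract, and per the study its carry-over into the libraries cannot be avoided. The study's control with untagged Pol I gave high signal in the gene regions and little in the spacers. An end that maps inside 18S may thus come from a nascent transcript or from a finished or broken ribosomal RNA. These values cannot tell such ends apart.

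The values are RPM, reads scaled so that every library has the same total over the 35S gene, and a change is therefore relative to the rest of the gene. The libraries held between 1054374 and 10480384 reads on the gene and between 281413 and 2971273 in the 18S interior. The share of reads in the transcribed spacers, which mature rRNA lacks, was 3.43%, 1.45% and 2.16% in the BMH-21-treated libraries at 2 min against 4.95%, 5.78% and 5.82% in the vehicle-treated ones. At 16 min it was 0.72%, 0.56% and 0.93% with BMH-21 against 3.73%, 3.86% and 4.75% with vehicle. At both times the drug-treated libraries all lay below the vehicle-treated ones in spacer share, so it moves with each comparison given here, and its part in them was not tested.

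The sequences the results turn on are printed as RNA from the bases the deposited tables give for the transcript, 5′ to 3′, each with its place on the minus strand of R64-1-1 and with 14 nucleotides on each side of the position named. A first set holds the highest positions of each treatment and those with the largest changes at each time, with the mapped nucleotide in capitals. Position 1631 was the highest with vehicle at 16 min as well.
Position 1631 at chrXII:465925-465953, highest with BMH-21 at both times: uuauugaagacuaaCuacugcgaaagcau
Position 1031 at chrXII:466525-466553, highest with vehicle at 2 min: cuuucgaugguaggAuaguggccuaccau
Position 1875 at chrXII:465681-465709, most raised at 2 min: ccaggaguggagccUgcggcuuaauuuga
Position 1465 at chrXII:466091-466119, most lowered at 2 min: gaaaaaauuagaguGuucaaagcaggcgu
Position 1766 at chrXII:465790-465818, most raised at 16 min: uguuuuuuuaaugaCccacucggcaccuu
Position 1898 at chrXII:465658-465686, most lowered at 16 min: auuugacucaacacGgggaaacucaccag

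A second set holds 10 positions that were lowered by BMH-21 at 16 min under every setting tried and that share one feature, a CG dinucleotide directly before the mapped nucleotide. The capitals mark that CG and the mapped nucleotide after it.
Position 816 at chrXII:466740-466768: uaaaucaguuauCGUuuauuugauaguuc
Position 988 at chrXII:466568-466596: gccuugugcuggCGAugguucauucaaau
Position 1023 at chrXII:466533-466561: ccuaucaacuuuCGAugguaggauagugg
Position 1063 at chrXII:466493-466521: uucaacggguaaCGGggaauaaggguucg
Position 1238 at chrXII:466318-466346: uaaauaccuuaaCGAggaacaauuggagg
Position 1899 at chrXII:465657-465685: uuugacucaacaCGGggaaacucaccagg
Position 2029 at chrXII:465527-465555: ugcgauaacgaaCGAgaccuuaaccuacu
Position 2187 at chrXII:465369-465397: ugacggagccagCGAgucuaaccuuggcc
Position 2273 at chrXII:465283-465311: auugcucuucaaCGAggaauuccuaguaa
Position 2308 at chrXII:465248-465276: gucaucagcuugCGUugauuacgucccug

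The pattern of signal along the 18S interior, to which mature rRNA adds, was much alike in the 4 groups, and most of what differed lay at single nucleotides. Between a BMH-21-treated and a vehicle-treated library, the Spearman correlation over the 1740 positions ran from 0.926 to 0.953 at 2 min, against 0.944 to 0.980 within BMH-21 and 0.967 to 0.993 within vehicle. By 16 min it ran from 0.861 to 0.951 between treatments, against 0.931 to 0.961 within BMH-21 and 0.887 to 0.956 within vehicle. These correlations are across positions of one gene, which share their sequence and their neighbours, and are given as a description.

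**Figure D1:**
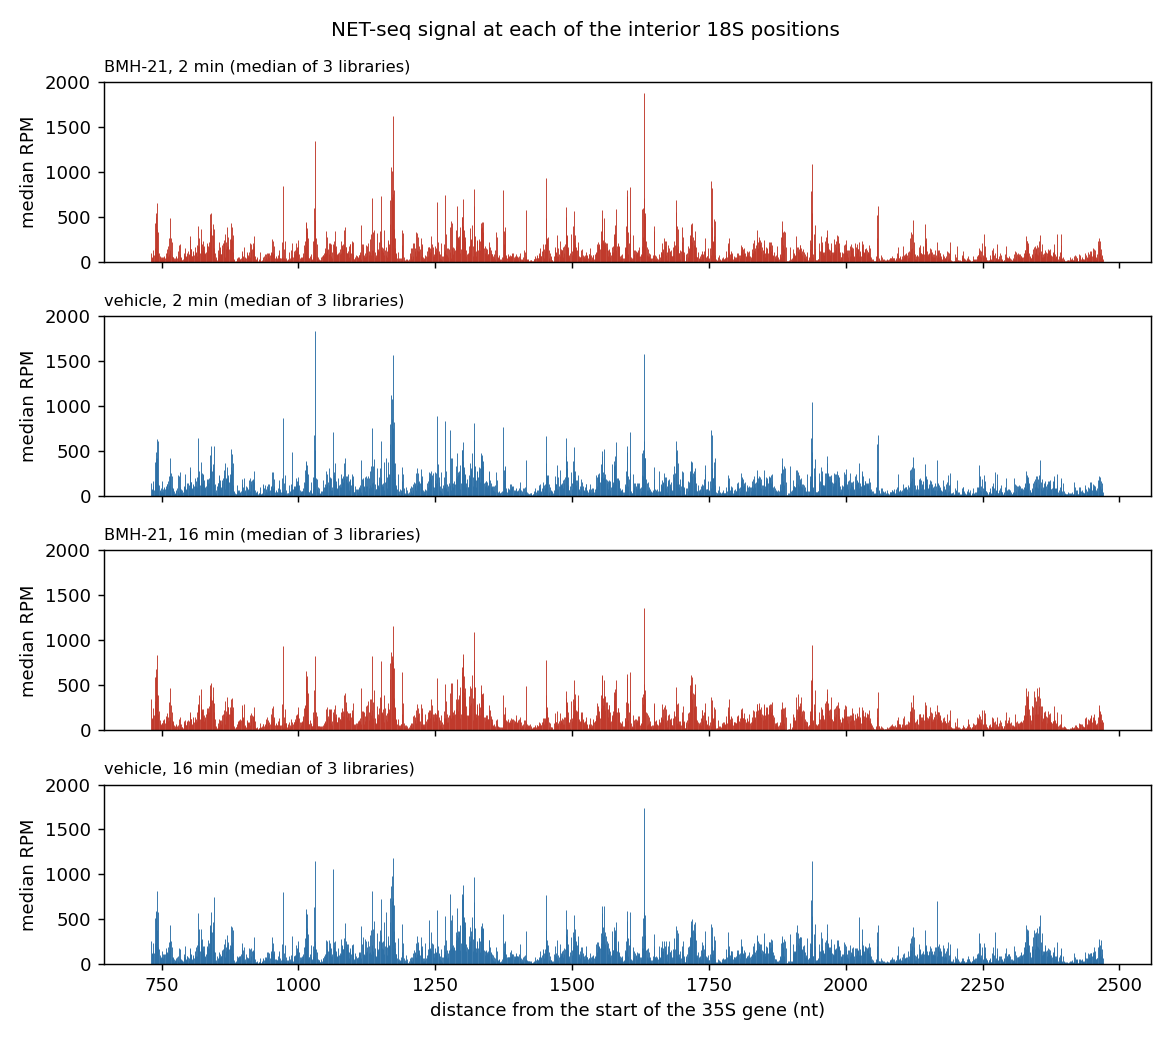
Median RPM of the 3 libraries of each group (y axis) at each of the 1740 positions of the 18S interior, by distance from the 35S start in nucleotides (x axis), with a panel for each treatment and time. The same tall positions recur in the 4 panels, and 50 of the 87 highest positions were shared by all 4 groups.

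Less of the signal on the gene lay in the 18S interior with BMH-21 at 2 min, while at 16 min the treatments overlapped. At 2 min the share was 22.0%, 24.8% and 24.0% in the BMH-21-treated libraries (23.6% ± 1.44, SD, n = 3) and 26.3%, 26.5% and 25.5% in the vehicle-treated ones (26.1% ± 0.54, SD, n = 3). The groups did not overlap, with p = 0.1 in an exact permutation test, two-sided, which is the smallest value that 3 libraries against 3 allow. At 16 min the share was 27.4%, 27.3% and 27.1% with BMH-21 and 28.4%, 27.3% and 26.9% with vehicle, and the groups overlapped (exact permutation p = 0.8, n = 3 each). Over both times the log2 ratio averaged −0.08 (exact permutation within times, p = 0.04, smallest possible 0.005). This p was 0.05 or above when any one of 7 of the 12 libraries was left out, reaching 0.09, and was 0.06 for the whole of 18S.

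Within the interior, the signal was uneven over windows of 100 nucleotides, and the order of the windows was much alike with and without the drug. Windows 5 and 6, positions 1131 to 1330, held the most signal. Window 5 took 8.92% ± 0.166 with BMH-21 and 8.51% ± 0.453 with vehicle at 2 min (SD, n = 3 each). Window 6 took 10.3% ± 0.261 with BMH-21 and 10.1% ± 0.232 with vehicle at 16 min, against 5.75% of the positions in each. Window 16, positions 2231 to 2330, held the least of the 17 full windows. The interior was also divided at its middle into a 5′ and a 3′ part of equal length, and no difference was detected in how the signal was split between them. The 5′ part took 57.1% ± 1.28 with BMH-21 and 56.7% ± 0.58 with vehicle at 2 min (exact permutation p = 0.8, n = 3 each), and 56.3% ± 0.49 with BMH-21 and 56.3% ± 1.39 with vehicle at 16 min (exact permutation p = 1, n = 3 each).

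Windows 9 and 16 differed between the treatments over both times. Window 9, positions 1531 to 1630, held 8.52%, 7.54% and 7.72% of the interior signal with BMH-21 at 2 min against 7.05%, 6.92% and 7.19% with vehicle. After 16 min it held 7.31%, 7.61% and 7.32% with BMH-21 against 7.14%, 6.57% and 6.98% with vehicle. Its libraries did not overlap at either time, and the log2 ratio over both times was 0.14 (exact permutation p adjusted by Benjamini-Hochberg over the 18 windows 0.045, n = 6 each). Window 16 held 2.64%, 3.14% and 2.99% with BMH-21 against 3.20%, 3.27% and 3.35% with vehicle at 2 min. By 16 min it held 3.28%, 3.42% and 3.42% with BMH-21 against 3.52%, 3.55% and 3.67% with vehicle (log2 ratio −0.13, adjusted exact permutation p = 0.045, n = 6 each). Neither difference passed when any vehicle-treated library of 2 min or any BMH-21-treated library of 16 min was left out, or with windows of 50 nucleotides. Over the 35 windows of 50 nucleotides the smallest possible p, 0.005, passes only if several windows reach it, so that setting decides little. Window 10, which holds position 1631, took 7.84% ± 0.311 with BMH-21 and 6.99% ± 0.147 with vehicle at 2 min, without overlap, and 6.95% ± 0.0711 with BMH-21 and 7.11% ± 0.154 with vehicle at 16 min, with overlap. The log2 ratio at 16 min minus that at 2 min was −0.20 (exact permutation p = 0.02, adjusted over the 18 windows 0.36).

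**Figure D2:**
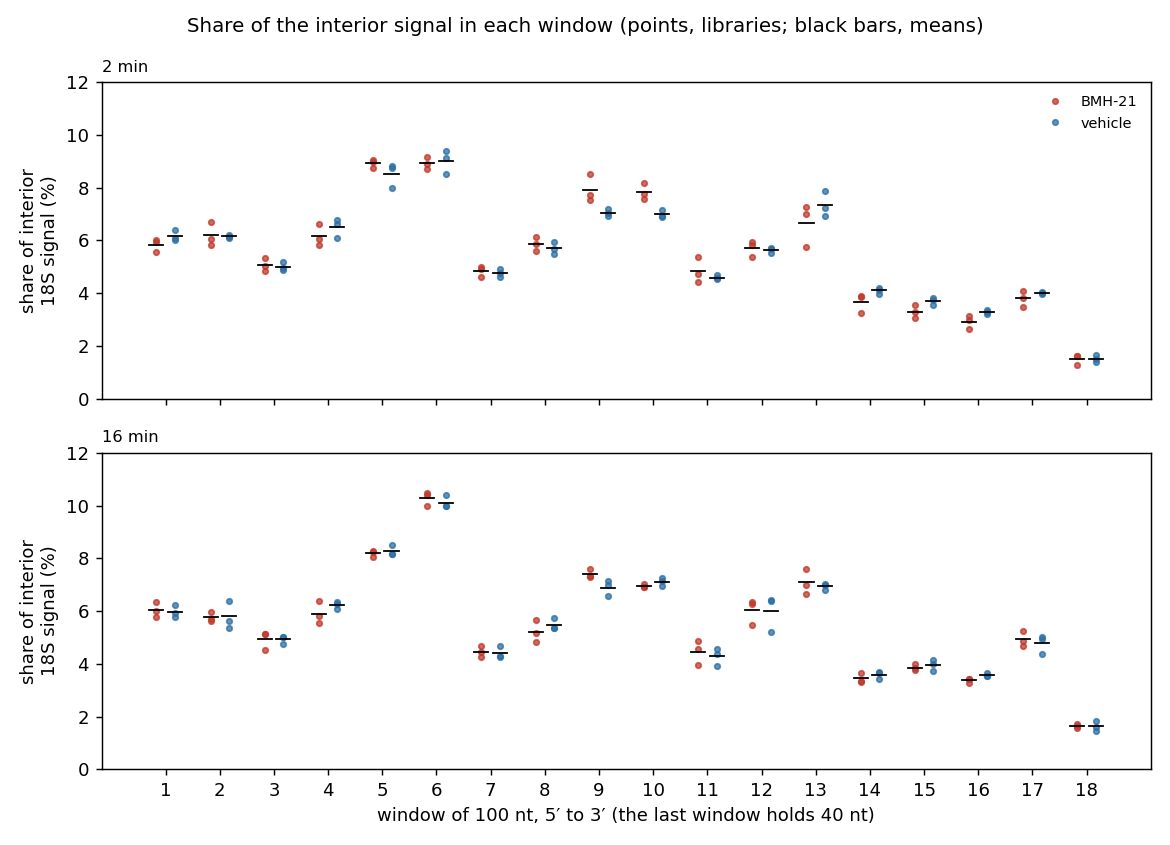
Percent of the interior signal (y axis) in each of the 18 windows (x axis, numbered from the 5′ end) at 2 min and 16 min, with a point for each library and a black bar for the mean of 3. The last window has 40 positions and the others 100, and the libraries of both treatments lie close together in nearly every window.

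The mapped base shifted with BMH-21. Adenine carried more of the signal than its share of the sequence in every library, and its excess was smaller with the drug. Adenine makes up 27.0% of the interior and took 33.6%, 32.8% and 33.3% of the signal with BMH-21 at 16 min, against 35.6%, 35.3% and 35.7% with vehicle. At 2 min it took 35.2%, 34.1% and 34.9% with BMH-21 against 35.2%, 35.7% and 35.6% with vehicle, where the libraries overlapped. Over both times the adenine share was lower with BMH-21 (difference −1.53 percentage points, exact permutation p adjusted over the 4 bases 0.02, n = 6 each).

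The pyrimidines were higher. Uracil, 28.3% of the interior, took 25.9%, 27.2% and 26.7% with BMH-21 at 2 min against 25.4%, 25.1% and 24.9% with vehicle. At 16 min it took 26.0%, 26.0% and 26.9% with BMH-21 against 25.2%, 24.3% and 25.4% with vehicle. It was higher in every BMH-21-treated library at both times, by 1.40 percentage points on average (adjusted exact permutation p = 0.02, n = 6 each). Cytosine, 19.3% of the interior, took 20.2% ± 0.278 with BMH-21 and 18.8% ± 0.12 with vehicle at 2 min, and 20.2% ± 0.966 with BMH-21 and 19.2% ± 0.303 with vehicle at 16 min (difference 1.15 points, adjusted exact permutation p = 0.02, n = 6 each). Guanine, 25.5% of the interior, took 18.5% ± 0.258 with BMH-21 and 20.5% ± 0.083 with vehicle at 2 min, where the groups stood well apart. After 16 min it took 20.3% ± 0.42 with BMH-21 and 20.3% ± 0.696 with vehicle. Over both times its difference was −1.02 points (adjusted exact permutation p = 0.05, n = 6 each), between 0.03 and 0.085 with one library left out. The change of the guanine difference between the times was 2.00 points and that of adenine −1.53 points, each at an exact permutation p adjusted over the 4 bases of 0.09 (n = 3 each).

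**Figure D3:**
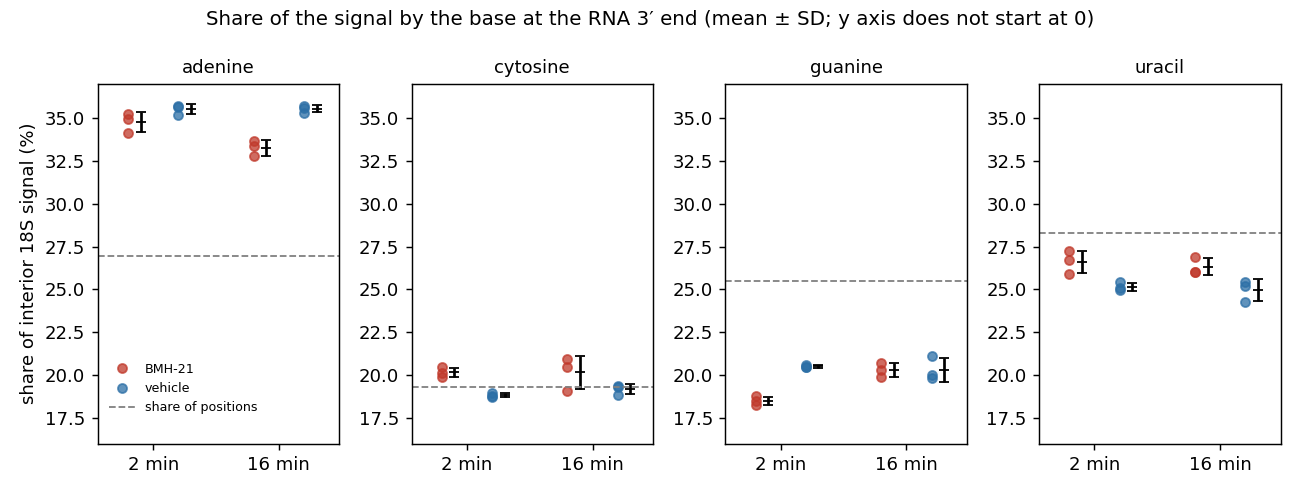
Percent of the interior signal mapped to each base (y axis, which starts at 16%) in BMH-21-treated and vehicle-treated libraries at 2 min and 16 min (x axis), with points for libraries, bars for mean ± SD of 3 and a dashed line for the base's share of the 1740 positions. Adenine lies above its dashed line in all 12 libraries, and uracil is higher in the BMH-21-treated libraries at both times.

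The highest positions were largely the same nucleotides with and without the drug. Of the 87 highest positions, the top 5%, 72 were shared between BMH-21 and vehicle at 2 min and 68 at 16 min. The 87 highest positions of each library, ranked within that library, took 23.3%, 22.1% and 22.3% of its interior signal with BMH-21 at 2 min. With vehicle they took 19.8%, 20.1% and 20.8%, without overlap (exact permutation p = 0.1, n = 3 each). At 16 min they took 19.8%, 19.5% and 19.0% with BMH-21 against 20.2%, 19.7% and 20.4% with vehicle, with overlap, and over both times the difference was 0.81 points (exact permutation p = 0.17, n = 6 each). Adenine was the commonest base among the 87 highest positions of each group. It made up 39 of 87 with BMH-21 and 44 with vehicle at 2 min, and 37 with BMH-21 and 45 with vehicle at 16 min. In the 10 nucleotides before the 87 highest positions of each library, the guanine share at 2 min was 26.2% ± 1.22 with BMH-21 and 28.7% ± 0.351 with vehicle. Over both times it was lower with BMH-21 (difference −1.61 points, adjusted exact permutation p = 0.045, n = 6 each). That value was 0.05 or above when any one of 9 of the libraries was left out, and it did not hold for the top 1%, 2.5% or 10%.

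The cytosine at position 1631, 18S nucleotide 931, was the highest position in every group but vehicle at 2 min, where position 1031 was higher. It stood at 1917, 1882 and 1879 RPM with BMH-21 at 2 min against 1547, 1586 and 1669 RPM with vehicle. By 16 min it stood at 1432, 1357 and 1334 RPM with BMH-21 against 1775, 1653 and 1741 RPM with vehicle. The libraries did not overlap at either time, higher with BMH-21 at the first and lower at the second, and neither change passed the test across positions (limma on the region scale, adjusted p = 0.069 and 0.29). The uracil at position 1172 overlapped between the treatments at both times, with 1462, 1621 and 1641 RPM with BMH-21 against 1460, 1640 and 1572 RPM with vehicle at 2 min. The adenine at position 1031 was lower in every BMH-21-treated library, at 1416, 1218 and 1342 RPM against 1843, 1836 and 1964 RPM with vehicle at 2 min. At 16 min it stood at 831, 842 and 750 RPM with BMH-21 against 1146, 1343 and 1146 RPM with vehicle. Its 2 min change passed on the deposited scale (limma log2 fold change −0.51, adjusted p = 0.028) and not on the region scale (−0.36, adjusted p = 0.12). The other positions among the 5 highest of a group, at 1938, 1169, 1171, 1321 and 971, overlapped between the treatments at both times, apart from the guanine at 1063, which is described with the lowered positions.

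For single positions, log2(RPM + 1) was compared with limma, with p-values adjusted by Benjamini-Hochberg over all positions of the 35S gene with a mean of at least 1 RPM and a threshold of 0.05. This was done on the deposited scale and, so that a change in the share of the whole region would not count at each position, on a region scale in which each library's values are divided by its sum over the interior. At 2 min 283 interior positions were lower and 15 higher with BMH-21 on the deposited scale, which is 16.3% and 0.862% of 1740, where 23.4% and 3.56% of the 35S positions tested were called. On the region scale 147 were lower and 25 higher, 8.45% and 1.44%, where 13.6% and 4.91% were called over the gene. Every position of the gene was scaled there by the library's sum over the 18S interior. At 16 min 46 were lower and 3 higher on the deposited scale, 2.64% and 0.172%, where 11.7% and 0.104% were called over the gene. On the region scale 44 were lower and 3 higher, 2.53% and 0.172%, where 11.3% and 0.119% were called. The share called lower inside 18S was thus below that of the gene at both times, but the gene includes the spacers, of which 44.4% at 2 min and 47.2% at 16 min were called lower on the region scale. In 25S, the other large mature region, 3.83% of positions were called lower at 2 min and 1.74% at 16 min on that scale, fewer than in the 18S interior, and 8.07% were called higher at 2 min. The difference between 18S and 25S was not tested. The balance of the calls depended on the scaling, since with median-ratio scaling in place of the totals the calls at 2 min were 84 lower and 58 higher on the deposited scale and 70 and 27 on the region scale, and at 16 min 37 and 8 on the deposited scale. The median log2 fold change of all interior positions was −0.23 on the deposited and −0.09 on the region scale at 2 min, and 0.03 and 0.04 at 16 min.

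The calls at 2 min rest on particular libraries and those at 16 min do less so. At 2 min no interior position was called on either scale when vehicle replicate 2 or vehicle replicate 3 was left out, and on the region scale none was called without BMH-21 replicate 3 or vehicle replicate 1 either. With edgeR's quasi-likelihood test on the recovered reads 157 were lower and 54 higher at 2 min on the region scale, and at an unadjusted p under 0.05 limma gave 306 and 129. At 16 min the count of lower positions on the region scale stayed between 22 and 53 over all 15 alternatives, and 16 of the 44 positions were called lower in every one of them. For the 147 positions at 2 min that number was 0, and for the 3 higher positions at 16 min it was also 0.

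**Figure D4:**
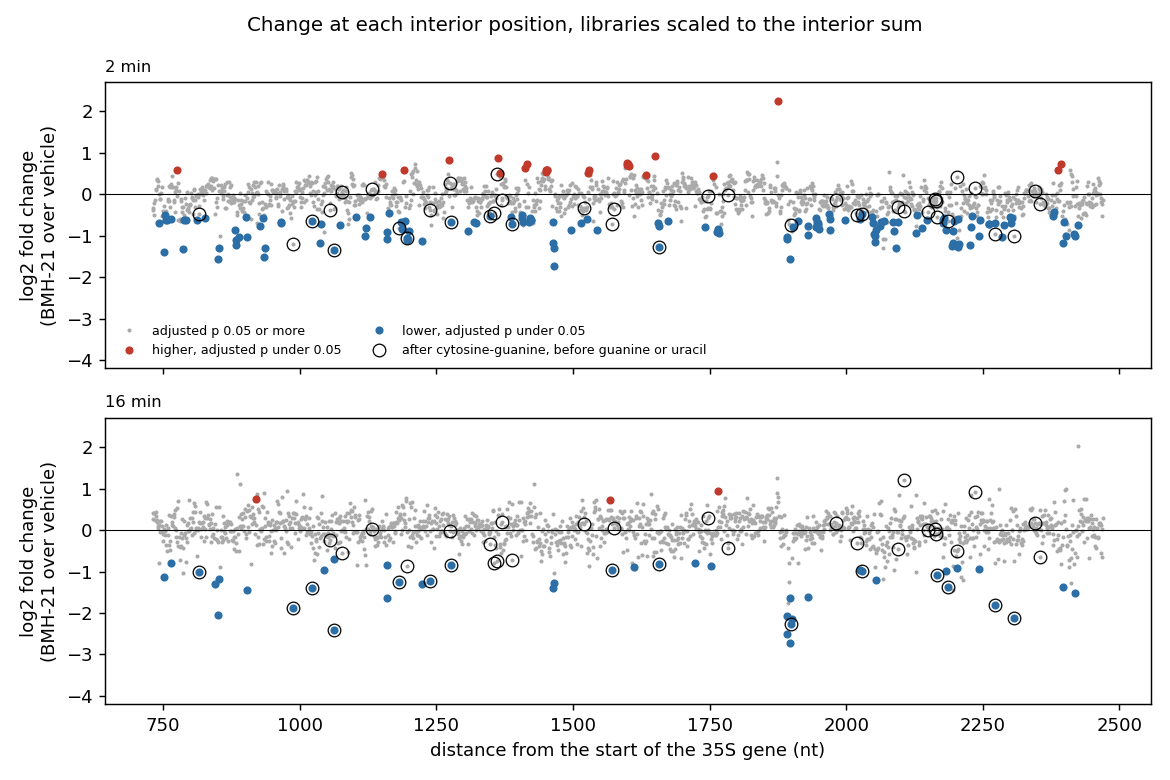
Log2 fold change on the region scale, BMH-21 over vehicle (y axis), for each interior position by distance from the 35S start in nucleotides (x axis) at 2 min and 16 min. Blue points were called lower, red points higher and grey points neither. Black rings mark positions that follow cytosine and guanine and precede guanine or uracil. Of these 40, 15 were called lower at 16 min, among them the 10 in which the feature was noticed.

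Most of the positions called lower were purines. Of the 44 positions lower at 16 min on the region scale, 19 were guanine, 17 adenine, 5 uracil and 3 cytosine, and of the 147 at 2 min, 58 were guanine, 50 adenine, 24 uracil and 15 cytosine. Guanine is 25.5% and adenine 27.0% of the interior. At 16 min 4.29% of guanines, 3.62% of adenines, 1.02% of uracils and 0.89% of cytosines were called lower. At 2 min the shares were 13.1%, 10.7%, 4.88% and 4.46% in the same order. The 2 times shared 25 positions called lower, 17.01% of the 2 min list and 56.8% of the 16 min list. All 44 positions of 16 min had a negative fold change at 2 min as well (median −0.91 on the log2 scale), and 97 of the 147 positions of 2 min had one at 16 min (median −0.19). Of all 1740 interior positions, 1048 (60.2%) had a negative fold change at 2 min and 773 (44.4%) at 16 min. No position was called higher at both times.

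The lowest adjusted p in the 18S interior at 16 min belonged to the guanine at position 1063, nucleotide 363 of 18S. With vehicle it was one of the 5 highest positions at 16 min, and with BMH-21 it was not. Its values were 196, 202 and 207 RPM with BMH-21 at 16 min against 1026, 1151 and 1061 RPM with vehicle, with no overlap (limma log2 fold change −2.40, SE 0.15, adjusted p = 0.00085, between 7.3e-07 and 0.0082 over the alternatives). At 2 min they were 316, 189 and 204 RPM with BMH-21 against 510, 709 and 768 RPM with vehicle (limma −1.35, adjusted p = 0.031). With the drug the peak stood little above its neighbours. Its ratio to the mean of the 3 nucleotides on either side was 1.29, 1.09 and 1.36 with BMH-21 at 16 min against 6.22, 6.48 and 6.63 with vehicle.

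The 16 positions called lower under every alternative at 16 min comprised 10 adenines, 4 guanines and 2 uracils, with log2 fold changes between −2.72 and −0.99. They lay between positions 751 and 2308, and all 16 had a negative fold change at 2 min, 8 with an adjusted p under 0.05 there (limma). Of all interior positions, 60.2% had a negative fold change at 2 min. The adenine at position 751 stood at 74.6, 61.4 and 75.9 RPM with BMH-21 at 16 min against 145.6, 181.3 and 146.8 RPM with vehicle. At 2 min it stood at 70.0, 47.4 and 50.3 RPM with BMH-21 against 140.4, 183.4 and 167.9 RPM with vehicle. The guanine at position 904 stood at 39.9, 45.3 and 39.8 RPM with BMH-21 at 16 min against 98.4, 114.8 and 140.6 RPM with vehicle. The groups did not overlap at either position.

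These 16 positions shared a sequence feature that the test did not use. A CG dinucleotide directly preceded 10 of the 16, as printed above, while 74 of the 1740 interior positions, 4.25%, follow a CG. The base after the mapped nucleotide was guanine in 8, uracil in 8 and adenine or cytosine in 0, where 27.0% and 19.3% of interior positions precede adenine and cytosine. This was noticed once the values had been seen, so it is given as a description with no test.

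Taking every interior position by this feature, 40 follow CG and precede guanine or uracil, and 15 of them were called lower at 16 min, 37.5%, with a median log2 fold change of −0.60. The 10 printed positions in which the feature was noticed are among these 15, so this share is partly set by how the feature was chosen. Of the 34 that follow CG and precede adenine or cytosine, 2 were called lower, 5.88%, with a median of −0.18. Of the 1666 that do not follow CG, 27 were called lower, 1.62%, with a median of 0.05. The 15 became between 10 and 18 over the 15 alternatives, and the calls at all other interior positions, 29, became between 11 and 35. With vehicle at 16 min, positions of the first kind stood above the mean of their 3 neighbours on each side by a median of 1.13 on the log2 scale, and with BMH-21 by 0.30. For positions of the second kind these medians were 0.62 with vehicle and 0.31 with BMH-21. For those not after CG they were −0.20 with vehicle and −0.15 with BMH-21. Because the feature was taken from lowered positions, a smaller excess with BMH-21 in the first kind is partly set by that choice.

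The positions after CG together took 5.15%, 5.26% and 5.32% of the interior signal with BMH-21 at 16 min (5.24% ± 0.085, SD, n = 3), against 7.30%, 7.07% and 7.22% with vehicle (7.19% ± 0.115, SD, n = 3). At 2 min they took 6.21%, 5.20% and 5.43% with BMH-21 against 6.14%, 6.95% and 7.03% with vehicle, and the groups overlapped through BMH-21 replicate 1 and vehicle replicate 1. At 2 min the feature also separated the calls less, with 8 of the 40 called lower, 7 of the 34 and 132 of the 1666, and no call at all without certain libraries.

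The 25S region, whose positions played no part in noticing the feature, gave the same order at 16 min in the same libraries. It was taken without its outer 30 nucleotides and on the region scale, so scaled by the 18S interior sum and not by its own. Of the 78 positions that follow CG and precede guanine or uracil, 20 were called lower, 25.6%. Of the 84 that follow CG and precede adenine or cytosine, 3 were called lower, 3.57%. Of the 3174 that do not follow CG, 33 were called lower, 1.04%. The median log2 fold change of the 78 positions was −0.45. Because 18S and 25S come from the same libraries and the feature was chosen after the 18S values were seen, these shares are also a description.

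Of the 5 most lowered positions at 16 min, 4 lay in one short stretch that starts at the uridine at nucleotide 1191 of 18S. In yeast this uridine is hypermodified, being a pseudouridine that carries an aminocarboxypropyl group on its base. It is position 1891, and the stretch from it to position 1902 is shown in capitals, chosen after its values were seen.
Positions 1882 to 1911 at chrXII:465659-465688: uaauuugacUCAACACGGGGAaacucacca

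Signal fell off sharply at the modified uridine in every library. Position 1890, just before it, held 145, 134 and 164 RPM with BMH-21 at 16 min against 189, 95.5 and 180 RPM with vehicle, with overlap. Position 1891 itself held 1.41, 0.379 and 0.949 RPM with BMH-21 at 16 min against 8.02, 6.89 and 16.1 RPM with vehicle, resting on 4, 2 and 1 reads with BMH-21 against 84, 15 and 21 with vehicle (limma log2 fold change −2.51, adjusted p = 0.0073; edgeR adjusted p = 0.070). The ratio of the first to the second of these positions was 102, 353 and 173 with BMH-21 at 16 min against 23.6, 13.9 and 11.1 with vehicle. At 2 min it was 30.2, 64.3 and 48.2 with BMH-21 against 25.7, 13.5 and 14.1 with vehicle. The step was thus present without the drug and steeper with it in every library.

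Over the 12 nucleotides of the stretch, the mean level was 15.2, 13.1 and 16.6 RPM with BMH-21 at 16 min against 48.2, 51.1 and 62.9 RPM with vehicle. At 2 min it was 41.3, 19.6 and 28.9 RPM with BMH-21 against 45.6, 57.4 and 55.9 RPM with vehicle. At 16 min the groups did not overlap. At 2 min they did not overlap in RPM, but BMH-21 replicate 1 overlapped the vehicle-treated libraries once each library was scaled to its interior sum (log2 difference −0.73, with no test, since the stretch was chosen on its values). With BMH-21 at 16 min the stretch was the lowest of the 1729 means that 12 neighbouring interior positions can form, while with vehicle 142 of those means were lower. The 12 nucleotides before the stretch held 181 ± 13.8 RPM with BMH-21 and 193 ± 31.2 RPM with vehicle at 16 min. The 12 after it held 190 ± 64.6 RPM with BMH-21 and 216 ± 90.5 RPM with vehicle (SD, n = 3 each), with overlap on both sides. Within the stretch, the guanine at position 1899, which follows a CG, held 74.6, 76.6 and 58.8 RPM with BMH-21 at 16 min against 338, 364 and 324 RPM with vehicle (limma −2.27, adjusted p = 0.0011). The guanine at position 1898 held 2.47, 1.33 and 1.90 RPM with BMH-21 against 16.7, 14.7 and 23.8 RPM with vehicle (limma −2.72, adjusted p = 0.0017), from 7, 7 and 2 reads with BMH-21 against 175, 32 and 31 with vehicle.

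**Figure D5:**
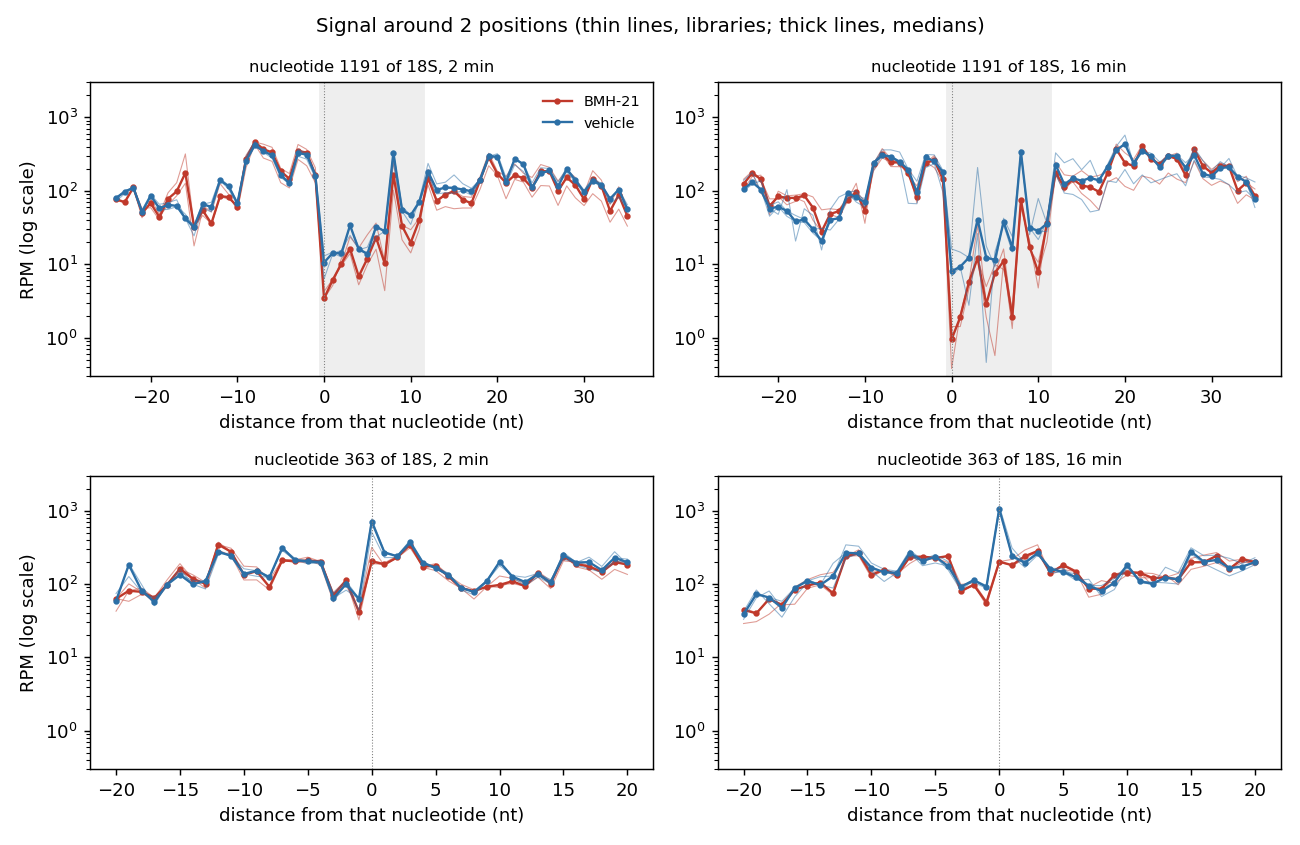
RPM on a log axis (y axis) in each library around nucleotide 1191 of 18S, with the stretch of 12 nucleotides shaded, and around nucleotide 363, at 2 min and 16 min. The x axis gives the distance in nucleotides from the nucleotide named. In the stretch the BMH-21-treated libraries of 16 min average between 13.1 and 16.6 RPM against 48.2 to 62.9 RPM with vehicle, and at nucleotide 363 they hold 196 to 207 RPM against 1026 to 1151 RPM.

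Most of the modified nucleotides of 18S stood below the interior's median level with and without the drug. A list of 37 modified nucleotides from textbook knowledge of yeast 18S matched the base in the deposited tables at all 37, and 33 lie in the interior. The 17 with a 2′-O-methyl group had a median of 40.2 RPM with BMH-21 and 61.7 RPM with vehicle at 2 min, and 63.5 RPM with BMH-21 and 62.2 RPM with vehicle at 16 min. For comparison, the medians of the whole interior were 95.6 RPM with BMH-21 and 109 RPM with vehicle at 2 min, and 117 RPM in both at 16 min. At least 11 of the 17 lay below that median in each group. At 2 min 6 of the 17 were called lower on the region scale, beside the 8.45% of the interior, with a median log2 fold change of −0.57, and at 16 min 0 of 17 were called, with a median of −0.12. Low positions were called lower more often at 2 min, with 81 of the 435 interior positions of lowest level called. Of the 14 pseudouridines, at least 9 lay below the interior median in each group, and 2 were called lower at 2 min and 1 at 16 min, which was nucleotide 1191. Over the whole interior 8.45% were called lower at 2 min and 2.53% at 16 min. No difference between modified and other nucleotides was tested.

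The positions raised by BMH-21 at 2 min were led by the uracil at position 1875, 16 nucleotides before the modified uridine. It held 318, 127 and 175 RPM with BMH-21 at 2 min against 41.9, 48.0 and 41.8 RPM with vehicle, without overlap (limma log2 fold change 2.25, SE 0.36, adjusted p = 0.027). With the drug it stood out from its neighbours, at 3.42 ± 1.03 times the mean of the 3 nucleotides on each side, and with vehicle it lay under them, at 0.768 ± 0.045 times (SD, n = 3 each). At 16 min the values were 59.0, 39.8 and 82.5 RPM with BMH-21 against 26.5, 46.4 and 30.0 RPM with vehicle, which overlapped.

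The cytosine at position 1650 was called higher at 2 min, at 343, 342 and 324 RPM with BMH-21 against 192, 187 and 209 RPM with vehicle (limma 0.93, adjusted p = 0.026). After 16 min it held 300.4, 280 and 246 RPM with BMH-21 against 203, 202 and 227 RPM with vehicle, which missed the threshold (limma 0.40, adjusted p = 0.23). The uracil at 1362, the cytosines at 1273 and 1874 and the guanine at 1599 were also called higher at 2 min on one or both scales, by log2 fold changes of 0.76 to 0.88 on the region scale. Among the lowered ones, the guanine at position 1465 held 7.85, 10.8 and 7.68 RPM with BMH-21 at 2 min against 28.1, 40.3 and 35.3 RPM with vehicle (limma −1.73, adjusted p = 0.020). At 16 min it held 8.83, 9.86 and 13.3 RPM with BMH-21, from 25, 52 and 14 reads, against 18.3, 36.3 and 30.7 RPM with vehicle (limma −1.29, adjusted p = 0.045, and edgeR adjusted p = 0.11). It was lower in every treated library at both times. The guanine at 935 was lowered at 2 min (limma −1.50, adjusted p = 0.027), while at 16 min it held 65.0, 67.1 and 60.7 RPM with BMH-21 against 64.9, 131.7 and 50.7 RPM with vehicle, which overlapped.

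The 3 positions called higher at 16 min were modest in size. The cytosine at position 1766 held 24.7, 34.5 and 29.4 RPM with BMH-21 against 16.0, 11.5 and 17.7 RPM with vehicle (limma 0.95, adjusted p = 0.045; edgeR adjusted p = 0.18). The guanine at 1568 held 271, 284 and 288 RPM with BMH-21 against 172, 167 and 174 RPM with vehicle (limma 0.73, adjusted p = 0.025). The adenine at 920 held 105, 82.9 and 98.6 RPM with BMH-21 against 54.0, 53.3 and 63.8 RPM with vehicle (limma 0.75, adjusted p = 0.048). The groups did not overlap at these positions, but none of the 3 kept its call under every alternative.

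The changes at 2 min differed with the level of the position. With the interior divided into 4 sets of 435 positions by mean level, low to high, the median log2 fold change on the region scale was −0.25, −0.11, −0.05 and 0.08, and 81, 25, 25 and 16 positions were called lower. At 16 min the counts called lower were 15, 5, 7 and 17, so that the set of highest level held about as many as the set of lowest level.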

How the data were processed

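NET-seq libraries of BMH-21-treated and vehicle-treated yeast, 3 per treatment and time, were taken from 1 deposited table for each time. Per the study's methods, reads were trimmed (cutadapt 1.12), aligned to assembly R64-1-1 (STAR 2.7.1a) and reduced to 5′ read ends, each marking a transcript's 3′ end. The authors deposited RPM values per position, scaled to each library's reads on the 35S gene. Merging of reads by the linker's molecular identifier is not stated in the sources used here. Vehicle columns are headed wt and BMH-21 columns mut, and 0 per-library columns were left unmapped. The authors' own summary columns (means, ratios, confidence limits and p-values) were not used.

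Read numbers were recovered from the RPM steps, with 99.9% to 100% of values within 0.05 of a whole number. They describe counting error only. The replicates are described as biological, from separate cultures of one strain. Positions were tested within each time with limma 3.58.1 (R 4.3.3) on log2(RPM + 1), at a mean of at least 1 RPM, with Benjamini-Hochberg adjustment over the gene. As an alternative, edgeR 4.0.16 was run on the reads, and it called 293 lower and 18 higher at 2 min and 62 lower and 7 higher at 16 min on the deposited scale. Shares were compared by exact permutation within times (Python 3.11.15, numpy 2.4.6, pandas 2.3.3). Other alternatives were the pseudocount (0.1 or 5), the filter (none or 10 RPM), the scaling, window size, top fraction, an unmoderated linear model, a replicate block and each library left out. The fits were tested on simulated data.

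Named positions are the 5 highest of each group and the 5 most raised and most lowered at each time and on each scale, and the 16 called under every alternative at 16 min were added after their values were seen, as were the stretch at nucleotide 1191 and the CG feature. The region is defined by coordinates alone, but it, the list of modified nucleotides and the named positions were chosen with earlier results of these data known.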

Additional observations from a re-analysis of the deposited data

Results flagged for a closer look

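At 3 of the named positions the BMH-21-treated libraries lay all on one side of the vehicle-treated ones at 2 min and all on the other side at 16 min. The share of all interior positions that did so is not given here, and the difference between the times was not tested. The guanine at position 1568 held 99.5, 129 and 131 RPM with BMH-21 at 2 min against 181, 154 and 143 RPM with vehicle, and was higher with BMH-21 at 16 min (limma log2 fold change 0.73). The cytosine at position 1766 held 14.1, 11.3 and 8.5 RPM with BMH-21 at 2 min against 25.2, 22.3 and 21.6 RPM with vehicle, and was higher with BMH-21 at 16 min (0.95). The cytosine at position 1631, the highest position in every group but vehicle at 2 min, was higher with BMH-21 at 2 min and lower at 16 min (−0.31).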

How the results depend on the processing

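The adenine, cytosine and uracil shares over both times passed with any library left out. With a replicate block, whose smallest p is 0.03125, they were −1.53, 1.15 and 1.40 at p adjusted over the 4 bases of 0.083, 0.0625 and 0.0625 (unadjusted 0.0625, 0.03125 and 0.03125), and the interior share was −0.080, guanine upstream −1.61, window 9 0.14 and window 16 −0.13, none passing after adjustment. Windows 9 and 16 each stood at the smallest p of the block before adjustment. That p passes over 18 windows only if many of them reach it, so the block could hardly pass them. On single positions the block gave 86 lower and 2 higher at 2 min on the deposited scale, 0 and 0 on the region scale, and 0 and 1 higher at 16 min on the 2 scales. Same-numbered libraries deviated together by correlations of −0.305, 0.003 and −0.225 at 2 min and 0.167, 0.061 and 0.469 at 16 min. The value of 0.469, for replicate 3, was the highest of any pair at 16 min. Whether the numbers pair the libraries was thus not settled. For the whole of 18S the share was −0.066 (not passing), guanine −1.19 (passing, as at −1.07 without the 10 highest positions), and the 5′ part turned to −0.75 at 2 min and −0.57 over both. Guanine upstream was −2.65, −1.55 and −0.34 for the top 1%, 2.5% and 10% and −2.03 with narrower flanks, none passing, and 0.33 at 16 min for the top 10%. Uracil upstream passed at 4.02 for the top 1% and 3.52 with narrower flanks. Guanine downstream turned to 0.25, −0.076 and 0.088 at 2 min, 16 min and over both for the top 2.5%, and −0.49 at 16 min with narrower flanks. The windows passing were 0 lower and 0 higher with 50 nucleotides or shifted, 0 lower with 200, and between 0 and 1 each with a library left out. Unmoderated models called 72 lower and 8 higher at 2 min on the deposited scale, 5 and 0 on the region scale, and 26 and 22 lower at 16 min on the 2 scales. Median-ratio scaling gave 84, 58 and 70 in the same order at 2 min, and 8 higher at 16 min. Higher calls at 2 min on the region scale were 14 and 46 with pseudocounts of 0.1 and 5 and 54 with edgeR. At 16 min they were 1 and 6 on both scales with those pseudocounts, 5 and 6 with a minimum of 10 RPM and 7 with edgeR.

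With 1 library left out, the ranges were −0.099 to −0.056 (both times) and −0.031 to 0.0061 (16 min) for the interior share, −0.38 to 0.81, −0.43 to 0.80 and −0.19 to 0.58 for the 5′ part at 2 min, 16 min and over both, −0.28 to 0.37 (16 min) and −1.15 to −0.83 (both) for guanine, 1.25 to 2.38 for uracil upstream, −1.84 to −1.26 for guanine upstream, −0.32 to 0.19 for guanine downstream and −0.012 to 0.091 for the nucleotides before the low stretch. Calls at 2 min ran from 0 to 333 lower and 0 to 23 higher on the deposited scale and 0 to 246 and 0 to 57 on the region scale. At 16 min they ran from 25 to 46 lower and 0 to 5 higher, and 24 to 40 and 0 to 5. Of the values at named positions, 67 under other settings and 111 with a library left out no longer passed, 237 and 105 did, and none reversed. The cause of these changes was not tested. At 16 min the lowest positions rest on a few reads, where the spread is wide.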
